A study of Macaca fascicularis with 28 samples.

Results

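The enzymes that oxidise, reduce and conjugate foreign compounds, together with those that make and destroy retinoic acid, were followed through the macaque tongue. A gene was included when its symbol began with the letters of a cytochrome P450 (CYP), a UDP-glucuronosyltransferase (UGT1 or UGT2), a glutathione S-transferase (GSTA, GSTM, GSTO, GSTP, GSTT or MGST), an aldehyde or alcohol dehydrogenase (ALDH, ADH), a sulfotransferase (SULT), a retinol or short-chain dehydrogenase (RDH, DHRS), an aldo-keto reductase of family 1 (AKR1), a flavin monooxygenase (FMO) or a carboxylesterase (CES). The study's own gene list gave the symbol where it names a probe set, and the array annotation gave it elsewhere. The letters matched 109 of the 14873 named genes, of which fibromodulin (FMOD) is no enzyme, leaving 108 enzymes with 172 of the 52024 probe sets. Each enzyme was read from 1 probe set, namely its brightest on average, in log2 intensity, across the 28 samples. The study's list was made for being higher in taste buds in these same samples, and it named 16 of the 108, so a higher level of those 16 in taste buds is not independent evidence. The 16 are ADH5, AKR1B1, AKR1C1, ALDH1A1, CYP26A1, CYP27A1, CYP2U1, CYP4X1, DHRS8, GSTA4, GSTM2, GSTO1, GSTT1, GSTT2, MGST2 and MGST3.

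The samples came from cynomolgus macaques (Macaca fascicularis) of both sexes, 2.6 to 4.5 years old, whose tongues were taken after euthanasia for other purposes. No genotype or treatment separates the groups. Each sample held about 5000 cells cut out by laser capture, and its RNA was amplified before hybridization to an Affymetrix Rhesus macaque array. The first array set of 20 samples held taste buds of the circumvallate (CV) papillae at the back of the tongue and the lingual epithelium (LE) beside those papillae, both from animals 1, 3, 4 and 5, as well as taste buds of the fungiform (FG) papillae at the front and the LE beside them, both from animals 1 to 6. The second set of 8 samples held the top and the bottom fraction of CV taste buds of animals 7 to 10, aged 3 years. The top fraction lies toward the taste pore and the bottom fraction toward the base of the bud. Levels are intensities in the deposited units, where 25 units is the study's minimum for a signal. Values of 4 samples are listed in the order of the animals just given, and those of 6 samples by their range and median. Array set and tissue cannot be told apart between the sets, so no test crossed them. A bulk sample also cannot tell fewer cells of a type from less RNA per cell.

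In tissues that meet the outside world, foreign compounds are commonly handled in steps. Cytochrome P450 and flavin monooxygenases add oxygen, dehydrogenases and reductases interconvert alcohols, aldehydes and ketones, and transferases attach glutathione, glucuronic acid or sulfate so that transporters can export the product. Vitamin A uses some of the same families: alcohol and short-chain dehydrogenases turn retinol into retinaldehyde, aldehyde dehydrogenases of the ALDH1A group turn retinaldehyde into retinoic acid, and CYP26 enzymes break retinoic acid down. Retinoic acid acts through nuclear receptors and is known as a regulator of epithelial differentiation, and vitamin A deficiency is known to disturb taste.

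Type II taste cell and differentiated keratinocyte markers separated taste buds from LE as labelled. The summed level of 8 type II taste cell markers on the array (among them PLCB2, TRPM5 and GNAT3) spanned 13825 to 19600.5 units for buds of CV papillae and 14936 to 18899.6 for buds of FG papillae. It spanned 21336 to 25571 for top fractions and 11287 to 16009.9 for bottom fractions, against 198 to 255 in CV-adjacent LE and 197 to 341 in FG-adjacent LE. The summed level of 13 differentiated keratinocyte markers (KRT4, KRT13, SPRR3, CRNN and others) ran the other way, from 93138 to 104785 and 77703 to 111905 in the LE groups to 5187 to 9203 in CV and 5199.8 to 24338 in FG taste buds. The summed level of 5 basal keratinocyte markers was higher in buds (2867 to 4326 and 4872 to 6147) than in most LE samples (859 to 2293 beside CV, 331 to 4616 beside FG). Of the 5, 4 were called higher against adjacent LE in each papilla, while TP63 was called lower in FG and not called in CV taste buds. Of the LE samples, that of animal 6 beside FG papillae had the lowest differentiated sum (77703) and the highest basal sum (4616). That of animal 3 beside FG papillae held the highest skeletal muscle sum (8055, next highest LE sample 559.6) and the highest fibroblast sum of the LE samples (4257). Leukocyte markers summed to 5374 to 6231 units in CV-adjacent LE and 1837 to 3612 in FG-adjacent LE. The 6 type I taste cell markers on the array set CV taste buds apart (558 to 1381 units, adjacent LE 103 to 199) but not FG taste buds (78.7 to 229, adjacent LE 139 to 330). Of the 3 tested, SLC1A3 was called higher in CV, and ENTPD2 and NTF4 lower in FG taste buds. The part of these cell mixtures in the results was not tested, and values without these FG-adjacent LE samples are given beside the calls that they change.

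Taste buds and LE carried different sets of these enzymes. Glutathione transferases such as GSTO1, the aldehyde dehydrogenase ALDH1A1 and the fatty acid hydroxylase CYP2U1 were far higher in taste buds of both papillae. GSTO1, ALDH1A1 and CYP2U1 are on the study's list, which chose them for higher levels in buds of these same samples. The flavin monooxygenase FMO2, the aldehyde dehydrogenases ALDH3B2 and ALDH1A3, and the lipid hydroxylases CYP4F22 and CYP4F11 were far higher in LE. Of the 108 enzymes, 79 reached 25 units in at least 4 samples of the first set and were tested with limma, animal as a block. Against adjacent LE, 23 of the 79 were higher and 19 lower in CV taste buds, where a call means a Benjamini-Hochberg adjusted p no larger than 0.05. Of all 26176 probe sets tested, 17.3% were higher and 18% lower beside the enzymes' 29.1% and 24.1%. With each animal's own level taken out by the block, the p-values measure how far the group differences varied from animal to animal (11 residual degrees of freedom). In FG taste buds 25 of 79 were higher and 23 lower, 31.6% and 29.1%, against 21.1% and 20.2% of all probe sets. These shares include the 16 enzymes of the study's list, of which 15 were higher in CV and 14 in FG taste buds. Of the 63 other tested enzymes, 12.7% were higher and 30.2% lower in CV, and 17.5% and 36.5% in FG. Since that list was chosen for higher levels in buds, neither set of shares is free of the choice. The median log2 change of the 79 was -0.19 in CV and -0.02 in FG taste buds, and that of all probe sets was -0.08 and 0.05.

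The calls of the papillae were set side by side. Of the 56 enzymes called in either papilla, 17 were higher in both, 17 were lower in both and none had opposite calls. In the CV comparison alone 6 were called higher and 2 lower, and in the FG comparison alone 8 were called higher and 6 lower. The same overlap was not counted over all probe sets, so it cannot be called particular to these enzymes. A call in one papilla and not in the other does not show that the papillae differ, and the test of that difference is given with the comparison of the papillae.

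**Figure D1:**
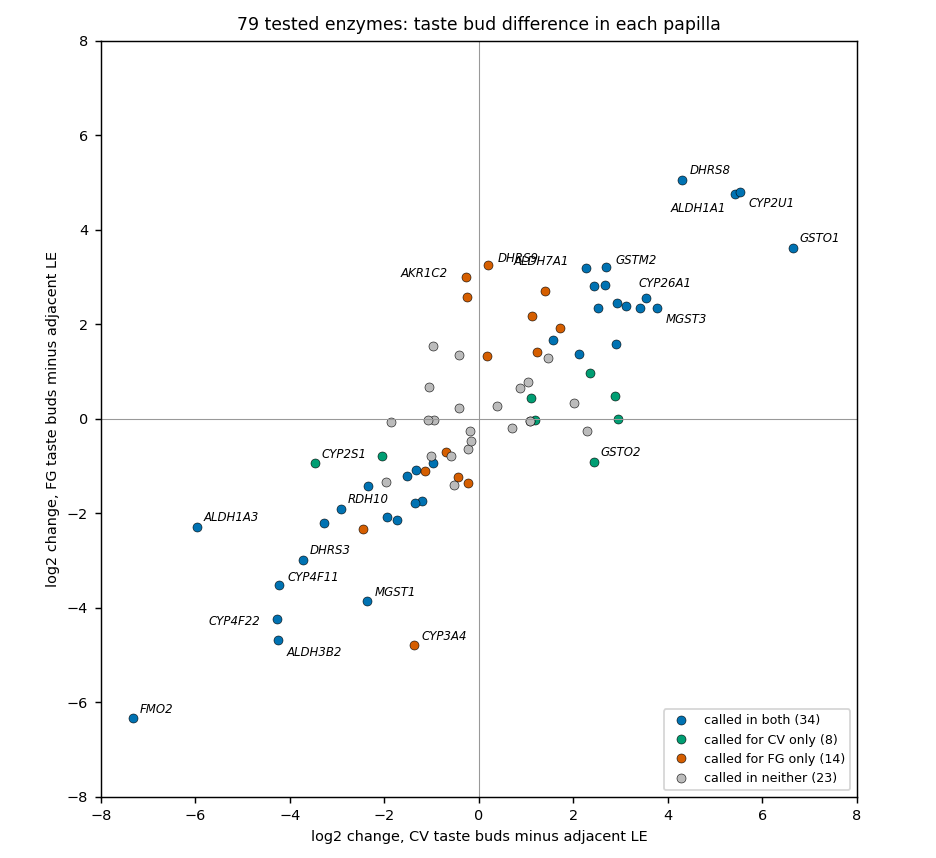
Log2 change of each of the 79 tested enzymes in CV taste buds against adjacent LE (x axis) and in FG taste buds against adjacent LE (y axis), coloured by the comparison in which it was called. The 34 enzymes called in both comparisons lie in the upper right, with GSTO1, CYP2U1, ALDH1A1 and DHRS8 outermost, or the lower left, with FMO2 outermost.

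Calls were counted family by family. All 15 glutathione transferases were tested, and 11 were higher and 2 lower in CV taste buds, while 8 were higher and 2 lower in FG taste buds. Their median log2 change was 2.44 in CV and 2.34 in FG. All 3 flavin monooxygenases and both carboxylesterases had negative changes, with 2 and 1 of them called lower in each papilla. The 25 tested cytochrome P450 genes, of 37 on the array, went both ways, with 5 higher and 6 lower in CV and 7 higher and 7 lower in FG taste buds. So did the 13 tested ALDH genes (2 higher and 3 lower in CV, 4 higher and 4 lower in FG) and the 9 tested DHRS genes (1 higher and 3 lower in CV, 2 higher and 4 lower in FG). In CV taste buds the shares higher and lower were 73.3% and 13.3% for GST and 20% and 24% for P450 genes. They were 15.4% and 23.1% for ALDH and 11.1% and 33.3% for DHRS, against 17.3% and 18% of all probe sets. In FG taste buds they were 53.3% and 13.3%, 28% and 28%, 30.8% and 30.8%, and 22.2% and 44.4%, against 21.1% and 20.2%. The P450 and ALDH shares in CV lay near those of all probe sets. These counts are descriptions, since no family was tested as a set. Of the 11 GST genes called higher in CV taste buds, 6 are named by the study's list, which also names GSTT1. With the array annotation as the only source of names, 101 enzymes remained, and 16 of 72 tested enzymes were higher and 19 lower in CV and 19 higher and 23 lower in FG taste buds.

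**Figure D2:**
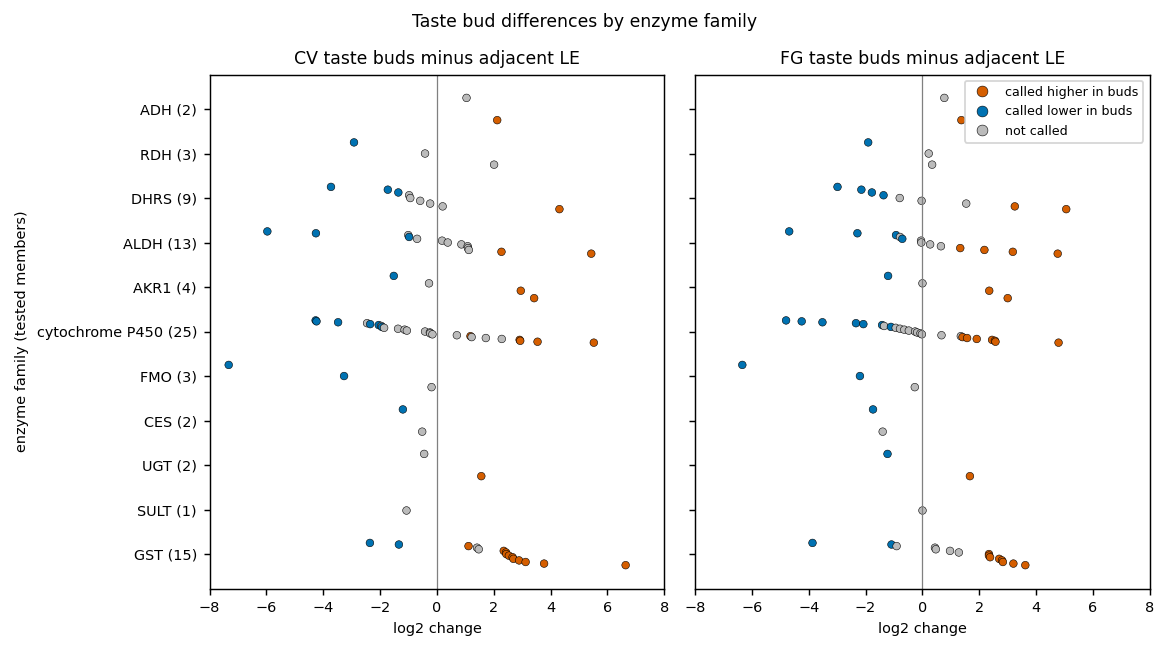
Log2 change of every tested enzyme, grouped by family on the y axis, for CV taste buds (left) and FG taste buds (right) against adjacent LE. Orange points were called higher and blue points called lower in taste buds, and the GST row lies mostly to the right of 0 while the FMO and CES rows lie to its left.

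Among the enzymes of the vitamin A pathway, ALDH1A1 was higher in taste buds and ALDH1A3 in LE, both of which make retinoic acid. ALDH1A1, a cytosolic retinaldehyde dehydrogenase, was high in every taste bud sample. Its level was 7277, 7214, 7868 and 8092 units in CV taste buds and 6012 to 7631 (median 6752) in FG taste buds. In CV-adjacent LE it was 16.5, 477, 145 and 852 units and in FG-adjacent LE 14.01 to 2002 (median 283). No LE sample reached the lowest bud sample, but LE samples themselves ranged from background to 2002 units. The log2 change was 5.43 ± 1.13 (adjusted p = 0.00213) in CV and 4.76 ± 0.92 (adjusted p = 0.00122) in FG taste buds, each ± standard error, in the same direction in 4 of 4 and 6 of 6 animals. The highest LE values were those of animals 3 and 6 beside FG papillae (2002 and 1475 units), the samples that stood apart in their markers. Without both, the FG change was 5.98 (adjusted p = 0.000765). The top and bottom fractions of CV buds held 6819, 8031, 8806 and 9115 and 6708, 7402, 7475 and 6579.7 units. The study names this probe set ALDH1A1, whereas the array annotation gives it as GHITM, a mitochondrial membrane protein. The 3 other probe sets annotated GHITM had log2 changes of -0.11 to 0.80 in CV and 0.13 to 0.29 in FG taste buds.

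ALDH1A3, the other retinaldehyde dehydrogenase with signal, ran the opposite way. CV-adjacent LE held 3308, 2393, 2591 and 3833 units and CV taste buds 46.1, 19.5, 71.05 and 78.8, with no overlap. FG-adjacent LE held 60.98 to 954 (median 672) and FG taste buds 35.97 to 381 (median 97.2), which overlap through the LE sample of animal 6 at 60.98 units. LE was 59.1-fold higher than CV taste buds in geometric mean, with a log2 change of -5.97 ± 0.74 (adjusted p = 3.32e-05), and 4.89-fold higher than FG taste buds, with -2.29 ± 0.60 (adjusted p = 0.00814). Without the LE sample of animal 6 the FG change was -2.99 (adjusted p = 0.00048). Every CV-adjacent LE sample lay above every FG-adjacent one, but that difference, 2.17 ± 0.70 (adjusted p = 0.139), and the interaction of papilla and tissue, -3.68 ± 0.95 (adjusted p = 0.0817), missed the threshold. The fractions of CV buds stayed low, 11.3 to 47.5 units at the top and 12.2 to 43.4 at the bottom. ALDH1A2, the remaining enzyme of that group, was under 25 units in all 28 samples.

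**Figure D3:**
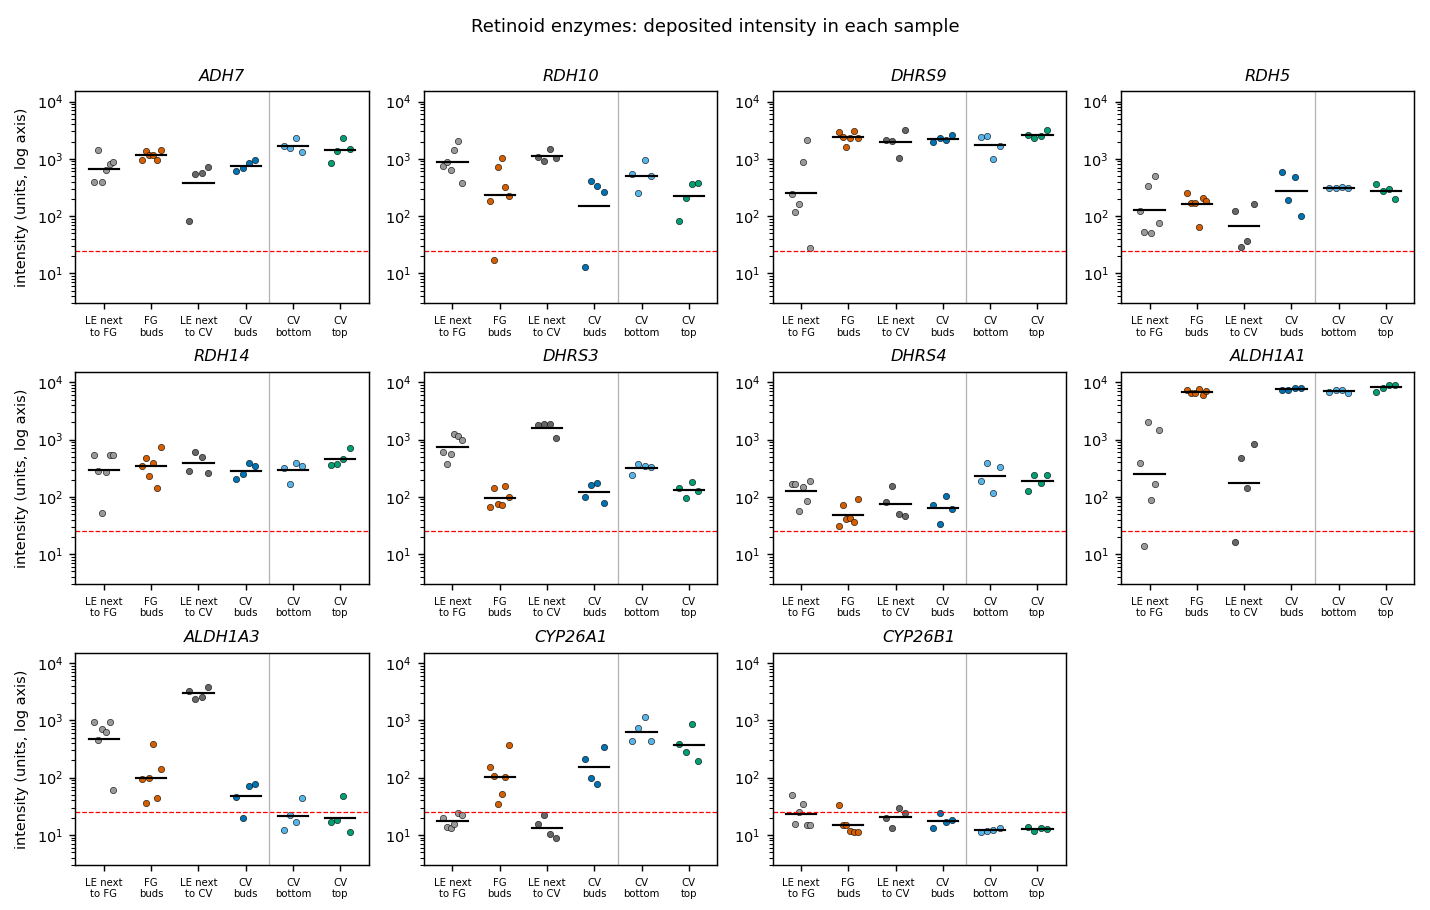
Intensity of the 11 tested retinoid enzymes in every sample, 1 panel per gene, on a log axis. Points are animals, black bars geometric means, the red dashed line the 25-unit minimum and the grey line the boundary between the array sets; ALDH1A1 and CYP26A1 are higher in the taste bud columns, and ALDH1A3 and DHRS3 in the LE columns.

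Upstream of that step, enzymes that make retinaldehyde and enzymes that remove it were both present. RDH10, a retinol dehydrogenase of the main route to retinaldehyde, was 1095, 919, 1458 and 1045 units in CV-adjacent LE and 12.8, 415, 338 and 259.9 in CV taste buds, and 382 to 2085 (median 810.1) in FG-adjacent LE and 16.9 to 1039.9 (median 272) in FG taste buds. It was lower in taste buds, -2.92 ± 0.89 (adjusted p = 0.02) in CV and -1.91 ± 0.72 (adjusted p = 0.0473) in FG. The CV call was lost without animal 1, 4 or 5, and the FG call without animal 2, 4 or 5 as well as without the block for animals, with no filter on dim probe sets and with centred arrays. Buds were lower in 5 of 6 FG animals. Its 3 other tested probe sets were all lower in CV taste buds too, and 1 of the 3 was lower in FG taste buds. DHRS3, which reduces retinaldehyde back to retinol, held 1782, 1875, 1866 and 1063 units in CV-adjacent LE and 98.2, 163, 175 and 77.3 in CV taste buds. In FG-adjacent LE it held 381 to 1259.8 (median 808) and in FG taste buds 66.8 to 153 (median 86.1). Neither pair of groups overlapped, and the changes were -3.73 ± 0.45 (adjusted p = 2.7e-05) and -2.99 ± 0.37 (adjusted p = 2.8e-05), lower in every animal.

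DHRS9, a short-chain dehydrogenase with retinol dehydrogenase activity, varied most in FG-adjacent LE. It was 1943, 2316, 2145 and 2614 units in CV taste buds, 1621 to 3022 (median 2345) in FG taste buds and 2168, 2025, 1044 and 3149 in CV-adjacent LE, but 27.3 to 2152 (median 201) in FG-adjacent LE, where the LE sample of animal 6 was lowest. FG taste buds were 9.53-fold higher than their adjacent LE (3.25 ± 0.61, adjusted p = 0.000933, 6 of 6 animals), and CV taste buds had a change of 0.20 ± 0.74 (adjusted p = 0.856). The difference between the LE groups, 2.43 ± 0.71 (adjusted p = 0.106), and the interaction, -3.05 ± 0.96 (adjusted p = 0.15), missed the threshold. ADH7, an alcohol dehydrogenase of upper digestive epithelia, was 773 ± 159 units (SD, n = 4) in CV taste buds and 1166 ± 191 (n = 6) in FG taste buds, against 482 ± 277 and 748 ± 377 in the adjacent LE. Its changes, 1.04 ± 0.44 (adjusted p = 0.0839) and 0.77 ± 0.36 (adjusted p = 0.101), were not called. RDH5, which oxidises 11-cis-retinol in the eye, had changes of 2.01 ± 0.77 (adjusted p = 0.0555) and 0.34 ± 0.63 (adjusted p = 0.685). The CV change passed without the FG-adjacent LE sample of animal 3 (adjusted p = 0.0422), without animal 5, with centred arrays, and without the block for animals or with a random one. RDH14 had -0.42 ± 0.60 (adjusted p = 0.625) and 0.22 ± 0.49 (adjusted p = 0.738). DHRS4, another retinaldehyde reductase, had -0.24 ± 0.45 (adjusted p = 0.713) and -1.37 ± 0.37 (adjusted p = 0.00909). Its next brightest probe set went the other way, with log2 changes of 2.84 (adjusted p = 0.0141) in CV and 3.91 (adjusted p = 0.000438) in FG taste buds, so the direction of DHRS4 is not settled.

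Of the CYP26 genes that code for retinoic acid hydroxylases, CYP26A1 was higher in taste buds, and the study's list chose it for that in these samples. It was 215, 100.4, 76.6 and 349 units in CV taste buds and 34.7 to 374 (median 106) in FG taste buds. Both LE groups stayed under 25 units in every sample (8.79 to 22.00 and 13.2 to 23.8). Taste buds were at least 6.20-fold higher in CV (3.54 ± 0.50, adjusted p = 0.000116) and at least 4.12-fold higher in FG (2.55 ± 0.41, adjusted p = 0.000304), in every animal. In the fractions CYP26A1 was 428, 743, 1124 and 434 units at the bottom and 394, 277, 860.1 and 194 at the top. The bottom was higher in 4 of 4 animals, but the change from bottom to top, -0.77 ± 0.32 (adjusted p = 0.237), was not called, while the other probe set of the gene had -1.60 (adjusted p = 0.0443). CYP26B1, its relative, reached 25 units in few samples and was not called (-0.24 ± 0.42, adjusted p = 0.694 and -0.64 ± 0.34, adjusted p = 0.151). Of the 17 retinoid enzymes on the array 11 were tested. In CV taste buds 2 were higher and 3 lower (18.2% and 27.3%, against 17.3% and 18% of all probe sets), and in FG taste buds 3 were higher and 4 lower (27.3% and 36.4%, against 21.1% and 20.2%). The other 6 were not tested: ADH1B, RDH8, RDH16 and ALDH1A2 were under 25 units in all 28 samples, and ADH4 and ALDH8A1 exceeded it only in single samples of a group.

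Of 17 genes on the array for proteins that carry and sense retinoids, 13 were tested. In CV taste buds 2 were higher and 5 lower (15.4% and 38.5%, against 17.3% and 18% of all probe sets), and in FG taste buds 2 were higher and 4 lower (15.4% and 30.8%, against 21.1% and 20.2%). The median change was -0.45 and -0.75. STRA6, a membrane receptor for retinol uptake, had the log2 changes 3.29 ± 0.48 (adjusted p = 0.000156) in CV and 2.93 ± 0.40 (adjusted p = 6.7e-05) in FG taste buds. The retinoic acid-binding protein CRABP2 averaged 18.5 ± 3.29 units (SD, n = 4) in CV taste buds and 1199 ± 262 in adjacent LE (-6.01 ± 0.33, adjusted p = 1.7e-08), and 28.9 ± 16.9 and 2232 ± 739 in FG (-6.35 ± 0.27, adjusted p = 7.12e-10). FABP5, a fatty acid carrier that also binds retinoic acid, had -3.63 ± 0.29 (adjusted p = 7.68e-07) and -3.60 ± 0.24 (adjusted p = 7.2e-08). The receptor RARG had -3.28 ± 0.49 (adjusted p = 0.000168) in CV taste buds, and its partner RXRA had -3.25 ± 0.35 (adjusted p = 7.67e-06) in FG taste buds. RARG and RXRA were each called lower in both papillae. Beside these changes stood the differentiated keratinocyte markers, 11 of 13 lower in CV and 12 of 13 lower in FG taste buds with median changes of -5.48 and -4.90. Their part in the changes of the retinoid genes was not tested.

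Glutathione transferases, which couple glutathione to reactive compounds, were the family with the largest share of members higher in taste buds. GSTO1, an omega-class enzyme with thioltransferase activity, was 1867, 2533, 1422 and 2499 units in CV taste buds and 22.6, 24.1, 20.3 and 15.5 in CV-adjacent LE, where every sample lay under 25 units. CV taste buds were at least 80.99-fold higher (6.64 ± 0.70, adjusted p = 8.92e-06). FG taste buds held 1004 to 2052 (median 1544) and their adjacent LE 20.1 to 456 (median 146), without overlap and 11.9-fold apart (3.62 ± 0.57, adjusted p = 0.000265). The interaction of papilla and tissue was 3.01 ± 0.91 (adjusted p = 0.131). The fractions held 3492, 3605, 4910.5 and 3534 units at the top and 4516, 3273, 5344 and 3950.5 at the bottom.

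**Figure D4:**
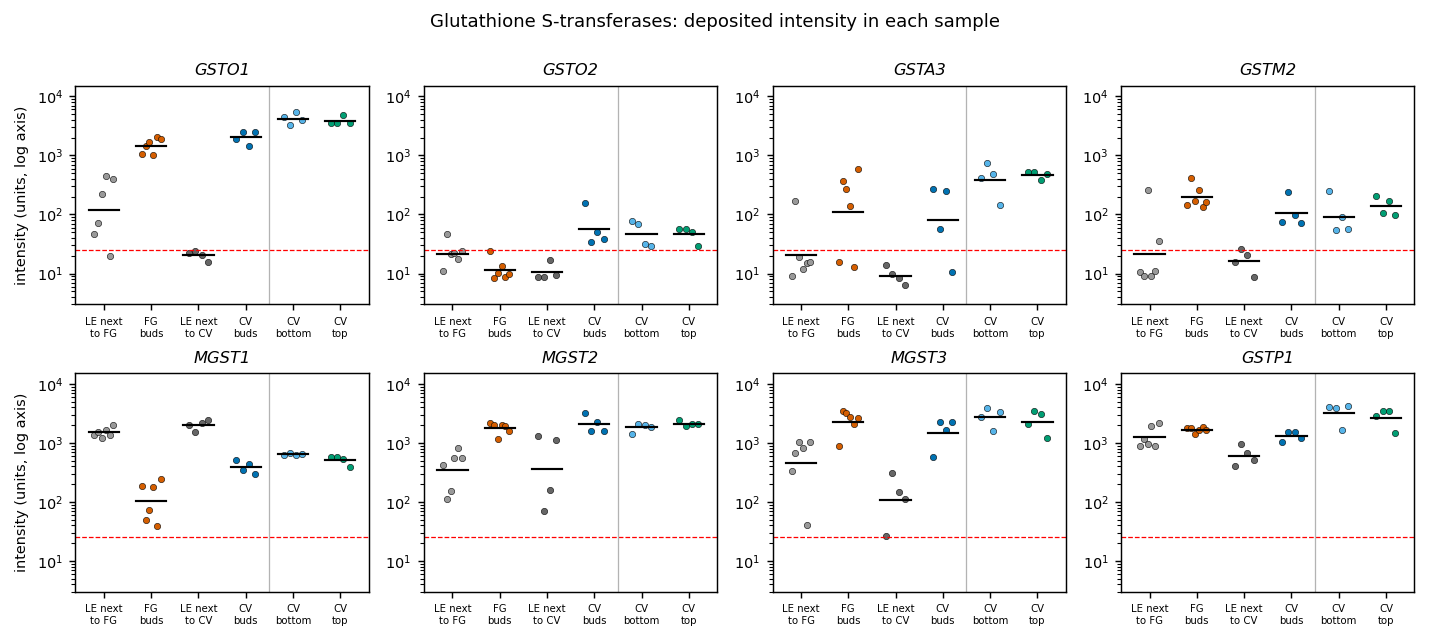
Intensity of 8 glutathione transferases in every sample on a log axis, drawn as in the plot of the retinoid enzymes. GSTO1, GSTM2, MGST2 and MGST3 are higher in the taste bud columns than in most LE samples, and MGST1 is higher in both LE columns.

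The microsomal transferases, which sit in the membrane of the endoplasmic reticulum, went in both directions. MGST3, a member linked to lipid mediators, was 566, 2223, 1638 and 2238 units in CV taste buds and 26.5, 314, 146 and 110.5 in adjacent LE (3.77 ± 0.70, adjusted p = 0.000951). It was 889 to 3505 (median 2655) in FG taste buds and 41.1 to 1048 (median 748) in FG-adjacent LE (2.34 ± 0.57, adjusted p = 0.00546), where the groups overlap. Its other probe sets were not called in either papilla, with changes of 0.18 to 1.03. MGST1, the broad detoxifying form, was 1975, 1506, 2151 and 2467 units in CV-adjacent LE and 516, 344, 439 and 292 in CV taste buds, and 1224 to 2039.5 (median 1442) in FG-adjacent LE and 39.9 to 243 (median 128) in FG taste buds. Neither pair overlapped, and LE was 5.13-fold higher beside CV (-2.36 ± 0.40, adjusted p = 0.000507) and 14.6-fold higher beside FG papillae (-3.87 ± 0.33, adjusted p = 8.88e-07). The next brightest MGST1 probe set was lower in both as well. All 4 alpha-class genes (GSTA1 to GSTA4) were called higher in CV taste buds, with changes of 2.35 to 3.12, and GSTA2 and GSTA3 also in FG. The other probe set of GSTA2 and that of GSTA3 were not called in CV taste buds. GSTA3 was 273, 57.3, 249 and 10.6 units in CV taste buds and 6.37 to 13.97 in adjacent LE (3.12 ± 0.97, adjusted p = 0.0222), so that the bud sample of animal 5 was itself at background. In FG it was 12.8 to 584 (median 208) in taste buds and 9.09 to 172 (median 15.3) in LE (2.38 ± 0.79, adjusted p = 0.0273). Its CV call was lost without animal 1 or 4, without the block for animals, and with values under 25 units raised to 25. Its FG call was lost without animal 3, 4 or 6, without the LE sample of animal 6 (adjusted p = 0.0919), and without the block. GSTM2, a mu-class gene named by the study's list alone, had 2.69 ± 0.72 (adjusted p = 0.0104), a call lost without animal 5, and 3.20 ± 0.59 (adjusted p = 0.000854). FG-adjacent LE held 9.00 to 258 (median 10.9) units of it, and its highest value was that of animal 3. Without that LE sample the FG change was 3.84 (adjusted p = 1.34e-05). Genes within the alpha class, and within the mu class, are near copies, and the probes may not tell them apart.

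Genes that supply and use glutathione outside the family were part of a mixed list of enzyme partners, cofactor makers and other conjugating enzymes. Of this list 27 were on the array and 24 tested. The list was chosen with earlier results of these data known, and its shares cover all its genes. In CV taste buds 11 were higher and 2 lower (45.8% and 8.33%, against 17.3% and 18% of all probe sets, median 1.05). In FG taste buds 9 were higher and 3 lower (37.5% and 12.5%, against 21.1% and 20.2%, median 0.85). Thioredoxin reductase TXNRD1 had 4.91 ± 0.52 (adjusted p = 9.56e-06) in CV and 3.21 ± 0.43 (adjusted p = 6.08e-05) in FG taste buds. Glutathione synthetase GSS had 4.02 ± 0.73 (adjusted p = 0.000763) in CV, and the esterases PON2 and PON3 had 3.03 ± 0.28 (adjusted p = 1.91e-06) and 3.10 ± 0.42 (adjusted p = 7.56e-05) in FG. GSS, PON2 and PON3 were each called higher in both papillae. PAPSS2, which makes the sulfate donor of sulfotransferases, was called lower in taste buds of both papillae, with -4.21 ± 0.85 (adjusted p = 0.0018) in CV. POR, the reductase that feeds electrons to microsomal P450 enzymes, averaged 129 ± 51.9 units in CV taste buds and 439.9 ± 126 in adjacent LE (-1.85 ± 0.39, adjusted p = 0.00239), and had -1.73 ± 0.32 (adjusted p = 0.000898) in FG. POR was singled out after its values were seen. Of 5 tested efflux transporters, 3 were higher in both papillae (60%, against 17.3% of all probe sets in CV and 21.1% in FG). ABCC5 had 8.42 ± 1.09 (adjusted p = 4.99e-05) and 6.31 ± 0.89 (adjusted p = 9.68e-05), ABCC4 3.77 ± 0.56 (adjusted p = 0.000162) and 4.39 ± 0.46 (adjusted p = 5.6e-06), and ABCC1, which exports glutathione conjugates, 4.48 ± 0.91 (adjusted p = 0.00178) and 2.38 ± 0.74 (adjusted p = 0.0201). Of 7 tested regulators of these enzymes, 2 were higher and 1 lower in each papilla (28.6% and 14.3%). Of all probe sets 17.3% and 18% were so in CV and 21.1% and 20.2% in FG, which is near these small counts. ARNT2, a dimerisation partner of the aryl hydrocarbon receptor, had 5.88 ± 0.43 (adjusted p = 2.77e-07) and 6.33 ± 0.35 (adjusted p = 1.03e-08). NFE2L2 (NRF2), the activator of antioxidant genes, had 1.35 ± 0.34 (adjusted p = 0.00778) and 0.72 ± 0.28 (adjusted p = 0.0542). TIPARP, a target of the aryl hydrocarbon receptor, was lower in CV taste buds (-1.32 ± 0.37, adjusted p = 0.0132), and CYP1A1, another known target of that receptor, was under 25 units in all 28 samples. CYP1B1, also a known target, went the other way in FG taste buds (2.57, adjusted p = 0.003). There its next brightest probe set had 2.27 (adjusted p = 0.000482) and its dimmest -0.07 (adjusted p = 0.941). In CV taste buds none of its 3 probe sets was called.

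The enzyme with the largest change in both papillae was FMO2, higher in LE. FMO2, the flavin monooxygenase best known from lung, was 2760.5, 1574, 1370.2 and 3226 units in CV-adjacent LE and 20.9, 15.2, 10.2 and 8.83 in CV taste buds. FG-adjacent LE held 161 to 2824 (median 1636) and FG taste buds 7.24 to 59.8 (median 12.3). Of the 10 taste bud samples, 1 reached 25 units. LE was at least 83.7-fold higher beside CV (-7.33 ± 0.68, adjusted p = 3.12e-06) and at least 40.1-fold higher beside FG papillae (-6.34 ± 0.56, adjusted p = 1.25e-06), without overlap. The lowest LE value, 161 units, was that of animal 6 beside FG papillae, and without it the change was -6.85 (adjusted p = 1.01e-06). In the fractions FMO2 stayed at 8.51 to 24.5 and 9.13 to 12.5 units. FMO4 was lower in taste buds, with -3.27 ± 0.89 (adjusted p = 0.0115) and -2.20 ± 0.73 (adjusted p = 0.027), a CV call lost without animal 3 or 4 and an FG call lost without animal 2, 4, 5 or 6 and without the LE sample of animal 6 (adjusted p = 0.0919).

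**Figure D5:**
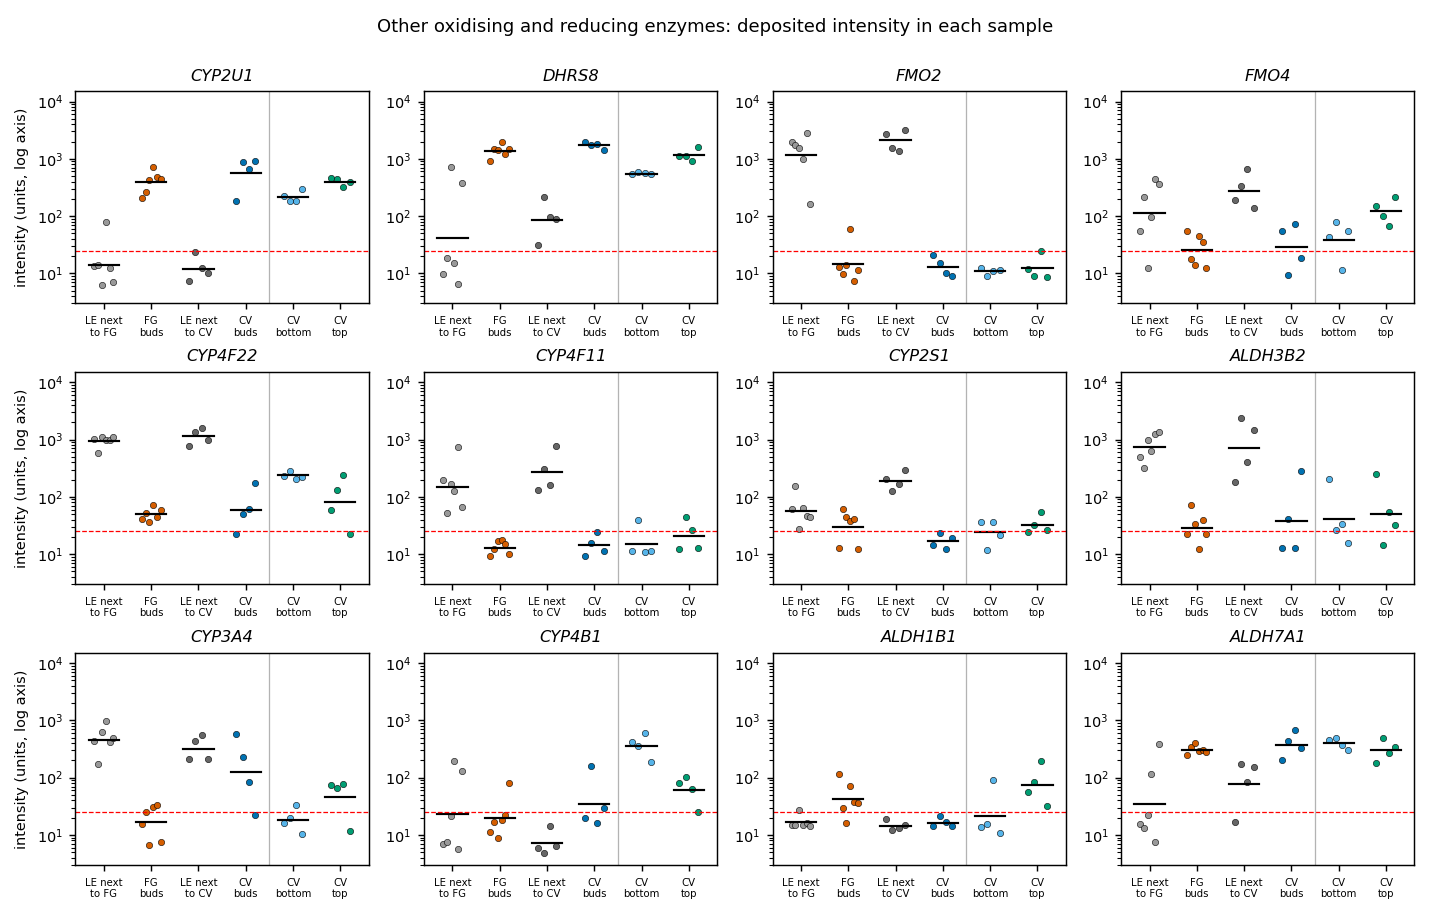
Intensity of 12 other oxidising and reducing enzymes in every sample on a log axis, drawn as in the plot of the retinoid enzymes. FMO2, CYP4F22 and CYP4F11 are higher in the LE columns, CYP2U1 and DHRS8 in the taste bud columns, and CYP4B1 is higher in the bottom than in the top fraction.

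Cytochrome P450 enzymes of the 4F group, which hydroxylate fatty acids and their derivatives, were lower in taste buds. Of 4 on the array 3 were tested, and all 3 were called lower in both papillae, beside 18% of all probe sets in CV and 20.2% in FG. CYP4F22, which makes the long hydroxylated fatty acids of the epidermal lipid barrier, was 787, 1343, 1595 and 991 units in CV-adjacent LE and 22.7, 50.01, 61.6 and 172 in CV taste buds, 18.8-fold apart (-4.27 ± 0.43, adjusted p = 6.35e-06). In FG it was 591 to 1105 (median 1007) in LE and 36.8 to 71.7 (median 48.1) in taste buds, 19.1-fold apart (-4.25 ± 0.35, adjusted p = 7.15e-07). Neither pair overlapped. CYP4F11 was 132, 309, 160.4 and 778 units in CV-adjacent LE and under 25 units in all 10 taste bud samples (-4.24 ± 0.56, adjusted p = 5.7e-05 and -3.52 ± 0.45, adjusted p = 4.48e-05). ALDH3B2, an aldehyde dehydrogenase of lipid aldehydes, ranged widely in LE, with 179, 2413, 401 and 1468 units beside CV and 319 to 1352 (median 816) beside FG papillae. CV taste buds held 12.8, 41.8, 12.6 and 285 and FG taste buds 12.3 to 72.4 (median 27.7), and the changes were -4.26 ± 0.69 (adjusted p = 0.000341) and -4.69 ± 0.56 (adjusted p = 2.42e-05), lower in every animal although the CV groups overlap. The differentiated keratinocyte marker sums given above were also higher in LE than in taste buds. In LE beside FG papillae, animal 6 had the lowest sum (77703) and the lowest FMO2 (161 units) and ALDH1A3 (61.0 units). Beside CV papillae, ALDH3B2 was lowest in animal 1, whose sum was the highest (104785). The part of these markers was not tested.

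CYP2S1, an extrahepatic P450 known from squamous epithelia, was 202, 126, 168 and 295 units in CV-adjacent LE and under 25 in all 4 CV taste bud samples (-3.48 ± 0.45, adjusted p = 4.76e-05). FG-adjacent LE held 27.2 to 153 (median 53.6) and FG taste buds 12.2 to 62.6 (median 39.3). The FG change, -0.94 ± 0.36 (adjusted p = 0.0523), was not called, but passed without the FG-adjacent LE sample of animal 3 (-1.18, adjusted p = 0.0201), without animal 3 and with all LE samples pooled. It also passed in the fit on the mean of each gene's probe sets. CYP2S1 has only 1 probe set, so its own values were the same there. Its difference between the LE groups, 1.84 ± 0.43 (adjusted p = 0.0535), and its interaction, -2.54 ± 0.58 (adjusted p = 0.0556), lay just over the threshold. Both passed with values under 25 units raised to 25 and with each array centred on its median. CYP3A4, the main drug-metabolising P450 of liver and gut, was 171 to 991 (median 461) units in FG-adjacent LE and 6.67 to 33.9 (median 20.2) in FG taste buds (-4.80 ± 0.68, adjusted p = 0.0001). In CV it was 216, 438, 550.3 and 208 in LE and 567, 227, 85.1 and 21.96 in taste buds, a wide spread with no call (-1.37 ± 0.83, adjusted p = 0.214). Its 2 other tested probe sets were lower in CV taste buds, with -6.23 (adjusted p = 2.04e-08) and -2.63 (adjusted p = 0.000156). The CYP3A genes are close copies and their probes may share transcripts. CYP7B1, an oxysterol hydroxylase, was called lower in FG taste buds (-2.34 ± 0.88, adjusted p = 0.0467), but reached 25 units in 2 of 6 FG-adjacent LE samples and lost the call without animal 1, 2, 3 or 6, and without the LE sample of animal 3 (adjusted p = 0.0609) or of animal 6 (adjusted p = 0.141).

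In the other direction stood CYP2U1, a P450 that hydroxylates long-chain fatty acids. It was 184, 877, 656 and 899 units in CV taste buds and 7.25, 24.03, 12.2 and 9.99 in adjacent LE, all LE samples under 25. It was 210.1 to 714 (median 437) in FG taste buds and 6.32 to 78.3 (median 12.8) in adjacent LE, where that of animal 4 passed 25. Taste buds were at least 22.2-fold higher in CV (5.52 ± 0.60, adjusted p = 1.07e-05) and at least 12.99-fold higher in FG (4.79 ± 0.49, adjusted p = 4.75e-06). DHRS8, now called HSD17B11, acts on steroids and lipid-droplet substrates and is named by the study's list alone. It was 1997, 1724, 1806 and 1426 units in CV taste buds and 31.3, 213, 96.2 and 89.2 in adjacent LE (4.31 ± 1.00, adjusted p = 0.00429), and 899 to 1995 (median 1434) in FG taste buds and 6.42 to 730.0 (median 16.7) in FG-adjacent LE (5.06 ± 0.81, adjusted p = 0.000302). The highest LE values were again those of animals 3 and 6 (730.0 and 378 units). Without both the FG change was 6.78 (adjusted p = 3.6e-07), and the difference between the LE groups went from 1.36 ± 0.95 (adjusted p = 0.481) to 2.91 (adjusted p = 0.0203). ALDH7A1, the lysine-breakdown aldehyde dehydrogenase, had 2.27 ± 0.83 (adjusted p = 0.0472) in CV, a call lost without animal 1, 3, 4 or 5, and 3.18 ± 0.68 (adjusted p = 0.00244) in FG taste buds.

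Aldo-keto reductases reduce aldehydes and ketosteroids. AKR1B1, aldose reductase, was 6473, 8891, 8301 and 7941 units in CV taste buds and 301, 2282, 601 and 704 in adjacent LE (3.42 ± 0.38, adjusted p = 1.35e-05), and 8050.2 to 9798 (median 9039) in FG taste buds and 1165 to 3041 (median 1615) in FG-adjacent LE (2.35 ± 0.31, adjusted p = 5.52e-05). Neither pair overlapped. The study's list gives this name, whereas the array annotation gives the probe set as GCLC, the glutamate-cysteine ligase of glutathione synthesis. The 4 other probe sets annotated GCLC had changes of 0.93 to 1.84 in CV and 1.61 to 2.18 in FG taste buds. AKR1C2, a hydroxysteroid dehydrogenase, was under 25 units in all FG-adjacent LE samples and 18.6 to 423 (median 65.9) in FG taste buds (3.00 ± 0.47, adjusted p = 0.000264), while in CV both groups lay near the minimum (-0.28 ± 0.58, adjusted p = 0.74).

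Few of these enzymes separated the papillae. CV and FG taste buds differed in 2 of the 79, both higher in CV and none lower (7 and 5 at an unadjusted p of at most 0.05), against 0.378% of all probe sets higher and 0.493% lower. MGST1 was 516, 344, 439 and 292 units in CV and 39.9 to 243 (median 128) in FG taste buds, 3.77-fold higher in CV without overlap (2.00 ± 0.39, adjusted p = 0.0259). The call was lost without animal 1, 3, 4 or 5 and with the mean of its probe sets. GSTO2, the relative of GSTO1, was 156, 33.6, 51.4 and 38.1 units in CV taste buds and under 25 in every FG taste bud sample (8.41 to 23.98), at least 2.27-fold higher in CV (2.37 ± 0.48, adjusted p = 0.034). It was also higher than adjacent LE in CV taste buds (2.43 ± 0.50, adjusted p = 0.00206) and not in FG taste buds (-0.91 ± 0.41, adjusted p = 0.0913). The interaction of papilla and tissue was called for GSTO2 alone, at 3.34 ± 0.65 (adjusted p = 0.0313), beside 0.271% of probe sets with a higher and 0.6% with a lower interaction. This was 1 of 79 enzymes, its levels were close to the minimum, and the call was lost without animal 3, 4, 5 or 6, without the FG-adjacent LE sample of animal 3 (adjusted p = 0.0517) or of animal 6 (adjusted p = 0.0538), or with values under 25 units raised to 25. The direct difference of GSTO2 between the buds was lost without animal 3, 4, 5 or 6 too, with values under 25 units raised to 25, without the FG-adjacent LE sample of animal 6 (adjusted p = 0.0523) and without those of animals 3 and 6 (adjusted p = 0.0603). The comparison of the LE groups with limma gave no called enzyme in either direction, while 0.97% of all probe sets were higher beside CV papillae and 0.294% lower. At an unadjusted p of at most 0.05 the counts were 11 higher and 6 lower.

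Within CV taste buds, the top and bottom fractions differed in 2 of the 67 enzymes tested in the second set, where 3 residual degrees of freedom limit the test. Of all 21167 probe sets tested, 1.68% were higher and 1.46% lower at the top. CYP4B1, an extrahepatic P450 that acts on fatty acids and protoxins, was 414, 362, 591 and 185 units at the bottom and 81.5, 103, 64.2 and 24.8 at the top, 5.90-fold higher at the bottom without overlap (-2.56 ± 0.31, adjusted p = 0.0245). ALDH1B1, a mitochondrial aldehyde dehydrogenase, was 56.8, 82.3, 193 and 31.6 units at the top and 13.5, 15.8, 91.7 and 10.7 at the bottom. It was higher at the top in 4 of 4 animals although the groups overlap (1.77 ± 0.31, adjusted p = 0.0411). With 1 animal left out, 0 or 1 of all probe sets tested were called, so the calls could not be checked in this way. The log2 change then stayed at -2.82 to -2.35 for CYP4B1 and at 1.57 to 1.85 for ALDH1B1, which was not tested without animal 9. The call of ALDH1B1 was lost without the block for animals. DHRS3 was 242, 374, 347 and 327 units at the bottom and 143, 93.7, 185 and 125 at the top without overlap, but was not called (-1.26 ± 0.30, adjusted p = 0.0805), and DHRS8 ran the other way, 1124, 1117, 925 and 1616 at the top and 536, 577, 556 and 543 at the bottom (1.08 ± 0.26, adjusted p = 0.0831). Beside these values, fibroblast markers summed to 4555 to 6116 units at the bottom and 627 to 1804 at the top, with 4 of 5 tested lower at the top. Basal keratinocyte markers summed to 6278 to 8861 and 3572 to 4941, and type II taste cell markers to 11287 to 16009.9 and 21336 to 25571. Their part in the differences was not tested.

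A part of the set gave no signal. Of the 108 enzymes, 29 were tested in neither array set, and 13 of them were under 25 units in all 28 samples, among them the sulfotransferases SULT1B1, SULT1C2 and SULT2A1, the steroid P450 genes CYP17A1 and CYP19A1, and UGT2B4. At the other end 32 enzymes reached 25 units in all 28 samples, among them ALDH2, ALDH9A1, GSTP1, MGST1 and DHRS7. The number of enzymes at 25 units or more per sample was 61 to 64 in CV and 60 to 67 in FG taste buds, 56 to 62 in CV-adjacent and 52 to 65 in FG-adjacent LE, 64 to 68 for top fractions and 66 to 68 for bottom fractions. A value under the minimum says only that the probe set did not detect the transcript.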

How the data were processed

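RNA of 28 laser-captured samples was hybridized to Affymetrix Rhesus arrays. Per the labels and methods, the authors normalized all 28 arrays together by GC-RMA in GeneSpring GX (versions not given in the sources used here) and deposited linear intensities, which carry no read depth; the number of animals limits the precision. From the deposited intensity values, log2 values were computed and fitted with limma 3.58.1 in R 4.3.3, with animal as a block, separately for the 20 samples of the first array set and the 8 of the second. Tests covered the probe sets that reached 25 units in 4 or more samples of a fit (26176 and 21167), and a call was a Benjamini-Hochberg adjusted p of at most 0.05 over all of them. GC-RMA corrects for probe composition and compresses or spreads low values, so changes near 25 units are less certain. Folds are ratios of geometric means with values under 25 raised to 25, written "at least" where the dimmer group is only a bound.

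Animal numbers in the labels pair the samples. Deviations from the group means correlated by 0.05 to 0.12 on average between samples of the same animal and by -0.04 to -0.01 between those of other animals, and no arrays were identical. Members and gene lists were chosen with earlier results of these data known. Named were the called enzymes, up to 8 per direction and comparison by size of change, and all tested retinoid enzymes. Of the other pathway genes the called ones with the 3 largest changes were named. The study's table gave names through 1997 entries used here, and 46 enzymes had several probe sets. The columns of the authors' own comparisons in that table were not used. The alternatives tried were the filter, raising low values, centring, the block, the probe set of a gene, the prior, a fold minimum, pooled LE, the methods' t-test and leaving out animals or samples. The steps were tested on simulated data. Sequences and coordinates are not given here, since no table of the array's build was used. The values of 1 gene of the retinoid binding list are not reported here.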

Additional observations from a re-analysis of the deposited data

Results flagged for a closer look

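Over 152 groups of 4 or 6 samples of the 32 named enzymes, 13 held a sample whose gap to its neighbours exceeded Dixon's 95% critical value, where chance gives about 1 in 20 groups. In FG-adjacent LE, ALDH1A3 of animal 6 was 61.0 units (others 450 to 954), FMO2 of animal 6 was 161 (others 1004 to 2824), CYP4F22 of animal 2 was 591 (others 966 to 1105), MGST3 of animal 5 was 41.1 (others 336 to 1047) and RDH14 of animal 3 was 52.4 (others 267 to 544). GSTA3 of animal 2 was the highest there at 172 units (others 9.09 to 19.3). In CV-adjacent LE, ADH7 of animal 1 was 82.8 units (others 553 to 724) and DHRS3 of animal 5 was 1063 (others 1782 to 1875). In taste buds, RDH10 of animal 1 in CV was 12.8 units (others 260 to 415) and RDH5 of animal 4 in FG was 64.9 (others 170 to 253). In the fractions, CYP3A4 of animal 10 at the top was 11.8 units (others 67.3 to 77.9), GSTO1 of animal 9 at the top was 4911 (others 3492 to 3605) and AKR1B1 of animal 9 at the bottom was 3832 (others 6078 to 6514).

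The change of GSTO2 against adjacent LE differed between the papillae by the interaction term, 3.34 on the log2 scale, higher in CV taste buds.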

How the results depend on the processing

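Of 51 calls of named enzymes, 35 held under every alternative limma fit run for them and 15 were lost under at least 1. That of DHRS4 in FG taste buds reversed. These counts leave out the second brightest probe set, the fold minimum and the t-test, under which some of the 35 may not hold. With the mean of its probe sets DHRS4 had 1.3 in CV and 1.27 in FG taste buds. In buds against LE, without the replicate block for animals the counts were 22 higher and 18 lower in CV and 23 and 20 in FG. With arrays centred on their median, which moved the median of all probe sets in FG from 0.05 to 0.22, they were 26 and 18 in CV and 25 and 17 in FG. At a change of at least 5-fold, 11 were lower in CV and 8 in FG. By the methods' t-test at its unadjusted threshold with that fold, 15 were higher and 10 lower in CV and 11 and 7 in FG, and after Benjamini-Hochberg 9 and 7 in CV. With the second brightest probe set, 3 were higher (5 with the brightest over the same genes) and 10 lower (6) in CV. Leaving out 1 animal gave 19 to 23 higher and 13 to 18 lower in CV, and 23 to 25 and 15 to 20 in FG, the lowest without animal 2.

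Small counts moved with most choices. For CV against FG buds, 2 higher became 1 with low values raised, with the mean of probe sets, with a 5-fold minimum, and without the FG-adjacent LE sample of animal 6 or those of animals 3 and 6, and 0 with the second brightest probe set and by both t-tests. 0 lower became 1 with a random replicate block, a trended prior, the second brightest probe set and the unadjusted t-test. Leaving out 1 animal gave 0 to 2 higher and 0 to 1 lower. Between the LE groups, 0 higher became 1 with low values raised, centring, the mean of probe sets and without the samples of animals 3 and 6, and 0 lower became 1 with a random replicate block. Leaving out 1 animal gave 0 higher and 0 to 1 lower. For the interaction, 1 higher became 2 with the mean of probe sets or a trended prior and 0 without the FG-adjacent LE sample of animal 6, of animal 3 or of both, and 0 lower became 1 with low values raised or the second brightest probe set and 2 with centring. Leaving out 1 animal gave 0 to 1 in each direction. For top against bottom, 1 higher became 0 without the filter, with low values raised, the mean of probe sets, a 5-fold minimum and both t-tests, 2 without the replicate block or with a random one, and 4 with a trended prior. 1 lower became 0 without the filter and by the adjusted t-test, and 2 without the block, with a random block, the mean of probe sets, a trended prior and the second brightest probe set. Leaving out 1 animal left 0 in both directions, but then 0 or 1 of all probe sets were called, so this says nothing about the enzymes. The causes were not tested. Signal over background limits values near 25 units.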

Other observations

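The probe set that the study's list names AKR1C1 is annotated KDELR2, a receptor of the endoplasmic reticulum. The 3 other probe sets annotated KDELR2 had log2 changes against adjacent LE of 1.04 to 2.64 for CV buds and 0.41 to 1.24 for FG buds. Over the 28 samples they correlated with it by r = 0.74 to 0.97, as a description of samples that share animals and tissues. Which transcript the AKR1C1 value measures was not tested.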
